A study of Sus scrofa with 37 samples.

Results

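The 10 genes described here, MX1, MX2, RSAD2, OAS1, OAS2, IFIT1, IFIT2, IFIT3, ISG15 and IFI44, are antiviral genes that cells switch on in answer to interferon. They were chosen by name, with earlier results of these data known, from 13664 genes that the array's annotation names. Every probe set annotated to one of them was used, which gave 20 probe sets. Of these, 19 passed the filter on low and constant signals that left 28086 of 47845 probe sets for testing. The second probe set of IFIT1, with an SD of 0.19 over the arrays, did not pass.

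Blood mononuclear cells (PBMC) of German Landrace piglets were profiled on Affymetrix snowball arrays, 1 array per pig and age. At 63 days postnatum (dpn), 6 pigs had received the low-intake diet (L), 5 the medium-intake diet (M) and 7 the high-intake diet (H), which differed in digestible phosphorus and therefore also in the ratio of calcium to phosphorus. The 19 arrays taken at 28 dpn, at weaning and before the diets began, served as reference samples (R), and came from 6 later L pigs, 6 later M pigs and 7 later H pigs. Both sexes were in every group, with 17 arrays of males and 20 of females, and 18 of the 19 pigs gave an array at both ages. The piglets came from few litters, the labels name no infection or vaccination, and a change between 28 and 63 dpn holds age, weaning and diet together.

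Interferons of types I and III are released when receptors for foreign nucleic acid, such as RIG-I, MDA5 and the Toll-like receptors, detect a virus. They bind their own receptors, and the kinases JAK1 and TYK2 then pass the signal on to the nucleus, where the interferon-stimulated genes are switched on. In blood, monocytes, dendritic cells and lymphocytes all carry this program, so its genes are widely used to read the interferon state of a whole blood or PBMC sample.

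Array medians lay between 5.25 and 5.42 on the log2 scale. Markers of T cells, B cells and monocytes were present, with CD3E at a mean log2 level of 10.36, MS4A1 at 11.48 and CD14 at 8.58 over all arrays, and the 4 tested erythroid markers averaged 11.17 to 12.58 at 63 dpn and 11.79 to 12.86 in R samples. Two-sided comparisons were made with limma on all tested probe sets, and a probe set was called when P and q were both at most 0.05. Levels are log2 intensities after normalization by the authors, so a difference of 1 is a doubling, and levels of different probe sets cannot be set against each other.

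With the 3 diets averaged, 5 of the 10 interferon-stimulated genes were called as lower at 63 dpn than at 28 dpn, and the other 5 did not pass. MX2, RSAD2, OAS1, ISG15 and IFI44 fell, each at its main probe set, by 0.77 to 1.17 on the log2 scale. Of the 19 member probe sets 8 were called, all of them lower, against 1.09% of all tested probe sets called in either direction and 0.278% called lower. All 19 had a negative log2 fold change, and the median over them was −0.60, against −0.01 over all tested probe sets. Leaving out each array in turn gave 3 to 9 calls, with 3 without the 63 dpn array of M pig 16. In PBMC, fewer cells of a type and less RNA per cell cannot be told apart.

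**Figure D1:**
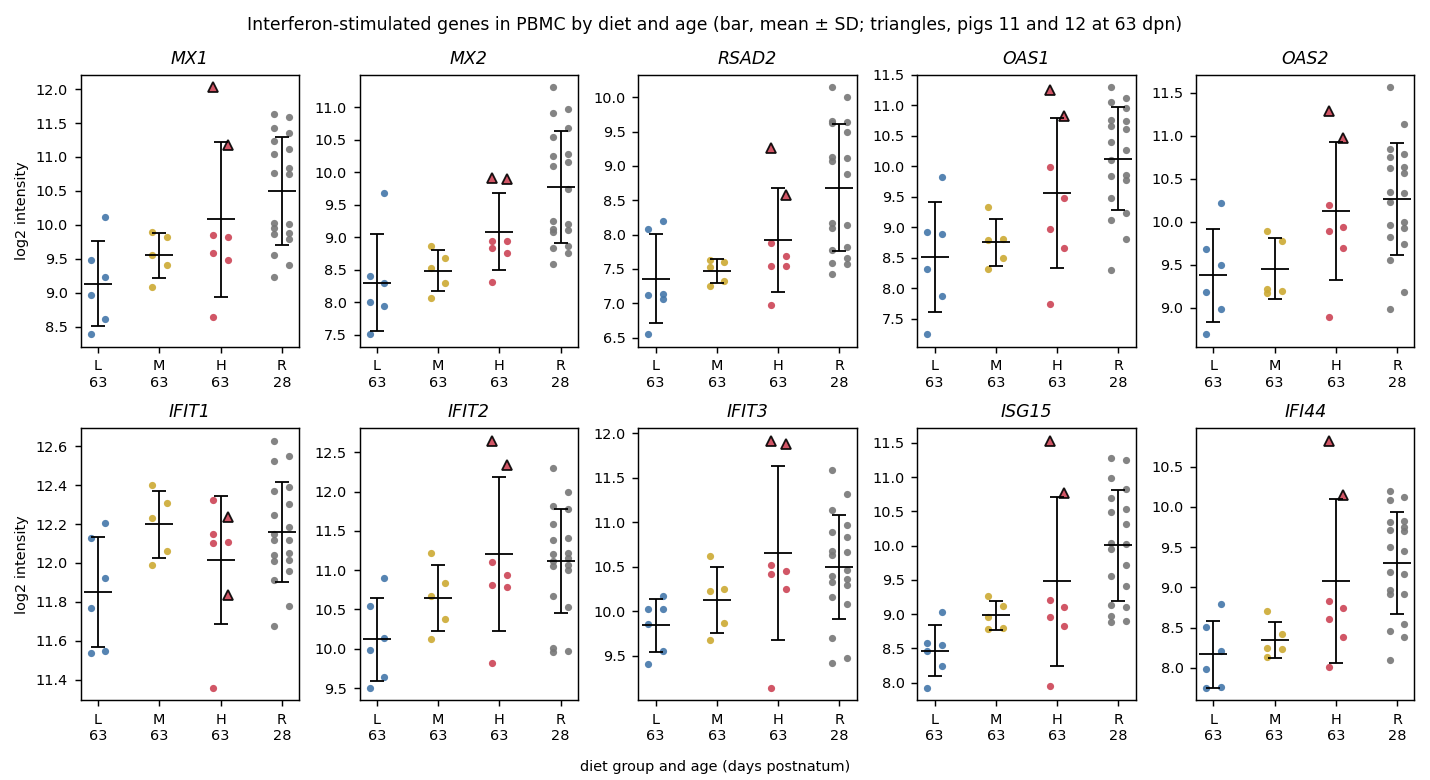
Log2 intensity (y axis) of the main probe set of each gene in every array, for L, M and H samples at 63 dpn and R samples at 28 dpn (x axis); bars give the mean ± SD and triangles mark the 63 dpn arrays of pigs 11 and 12. The L and M samples sit low in most panels, and the triangles stand at the top of the H samples for every gene but IFIT1.

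MX1 and MX2 encode dynamin-like GTPases that trap incoming virus particles or their nucleocapsids. For MX2 the lowest, median and highest log2 levels were 7.51, 8.15 and 9.67 in L samples, the 5 M samples held 8.07, 8.29, 8.53, 8.69 and 8.86, H samples had 8.32, 8.94 and 9.91, and R samples had 8.59, 9.74 and 11.31. The ranges overlapped, but 16 of 18 arrays at 63 dpn lay below the R mean. MX2 fell by 1.14 ± 0.23 on the log2 scale (SE), a 2.21-fold lower level (limma, q = 0.00818), with the lowest q among the 10 genes. In the same pigs MX2 was lower at 63 dpn in 16 of 18.

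For MX1, L samples had a lowest, median and highest level of 8.39, 9.10 and 10.11, M samples held 9.09, 9.41, 9.56, 9.83 and 9.89, H samples had 8.64, 9.83 and 12.03, and R samples had 9.24, 10.75 and 11.63. The highest MX1 level of the whole series was thus in an H sample at 63 dpn, in pig 12. MX1 had a log2 fold change of −0.89 ± 0.25 (SE) and was not called (limma, q = 0.0585), although 14 of 18 pigs had less at 63 dpn. It was called without the 63 dpn array of pig 12 (q = 0.0133), of pig 11 (q = 0.0457) or of L pig 4 (q = 0.0479), and without the 28 dpn array of M pig 8 (q = 0.0428) or L pig 14 (q = 0.043).

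RSAD2, or viperin, is a radical SAM enzyme that converts CTP into a chain terminator of viral RNA synthesis. Its lowest, median and highest levels were 6.55, 7.13 and 8.20 in L samples, the 5 M samples held 7.24, 7.32, 7.53, 7.60 and 7.62, and the 3 values were 6.97, 7.68 and 9.25 in H samples and 7.43, 8.88 and 10.15 in R samples. The M samples were close together, and 2 of the 5 lay below the lowest R sample, as did 4 of the 6 L samples. RSAD2 fell by 1.09 ± 0.24 (SE), to a level 2.12-fold lower (limma, q = 0.0157), and was lower at 63 dpn in 17 of 18 pigs, the most of any of the 10 genes. The second, dimmer RSAD2 probe set had a log2 fold change of −0.46 and was not called (q = 0.151).

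OAS1 and OAS2 make short adenylate chains in the presence of double-stranded RNA, which activate the nuclease RNase L. For OAS1 the lowest, median and highest levels were 7.24, 8.60 and 9.82 in L samples, M samples held 8.32, 8.50, 8.79, 8.81 and 9.34, and the values were 7.74, 9.47 and 11.25 in H samples and 8.29, 10.27 and 11.30 in R samples. Most arrays at 63 dpn, 16 of 18, lay under the R mean, while the 2 highest H samples lay above it. OAS1 fell by 1.17 ± 0.28 (SE), 2.24-fold (limma, q = 0.0222), and its other probe sets fell by 1.18 (q = 0.0315) and 0.69 (q = 0.0252).

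OAS2 was not called. Its levels were 8.69, 9.34 and 10.21 (lowest, median and highest) in L samples, M samples held 9.17, 9.19, 9.22, 9.78 and 9.90, H samples had 8.89, 9.94 and 11.28, and R samples had 8.99, 10.34 and 11.57. All groups overlapped. The log2 fold change was −0.60 ± 0.20 (SE, limma, q = 0.107), and no call was made for those of the other 2 OAS2 probe sets, which stood at −0.44 and −0.54. OAS1 and OAS2 are direct neighbors in the pig reference annotation (Sscrofa11.1), and MX2 and MX1 have 1 gene between them.

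ISG15 encodes a ubiquitin-like modifier that is attached to newly made proteins and is also released from cells. L samples had a lowest, median and highest level of 7.92, 8.51 and 9.03, M samples 8.78, 8.80, 8.95, 9.12 and 9.27, H samples 7.95, 9.11 and 11.53, and R samples 8.88, 10.03 and 11.28. Of the 6 L samples 5 were below the lowest R sample, and pig 11 at 63 dpn was above the highest. The level of ISG15 was 2-fold lower (SE of 0.25 on the log2 scale, limma, q = 0.0296), and its second probe set fell by 0.91 (q = 0.026). The third ISG15 probe set followed the other two less closely over the 37 arrays, with r of 0.63 and 0.66, and was not called at −0.29 (q = 0.171). The call of the main probe set was lost without the 28 dpn array of M pig 13 (q = 0.0562) or L pig 17 (q = 0.0521), or the 63 dpn array of L pig 10 (q = 0.0516) or M pig 16 (q = 0.056).

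IFI44 is an interferon-induced protein of the cytoplasm. Its lowest, median and highest levels were 7.75, 8.10 and 8.79 in L samples, M samples held 8.13, 8.23, 8.25, 8.42 and 8.70, and the values were 8.01, 8.74 and 10.83 in H samples and 8.10, 9.46 and 10.20 in R samples. Of the 6 L samples 3 lay below the lowest R sample, the M samples lay between the lowest and the median R sample, and pig 12 at 63 dpn was above the highest. IFI44 fell by 0.77 ± 0.21 (SE), 1.7-fold (limma, q = 0.0493). This was the narrowest call of the 5, since q rose above 0.05 without any one of 30 of the 37 arrays, and the call was also lost with pig as a block (q = 0.0509 as a random effect and 0.0721 as fixed effects).

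The IFIT proteins bind viral RNA: IFIT1 recognizes caps that lack a methyl group, and in human cells IFIT2 and IFIT3 assemble with it into larger complexes. The 3 genes lie side by side in the pig reference annotation. IFIT2 levels were 9.50, 10.06 and 10.90 (lowest, median and highest) in L samples, M samples held 10.13, 10.38, 10.67, 10.84 and 11.22, H samples had 9.82, 10.94 and 12.65, and R samples had 9.95, 11.15 and 12.29. The log2 fold change of IFIT2 was −0.44 ± 0.21 (SE) and not called (limma, q = 0.275). For IFIT3 the lowest, median and highest were 9.41, 9.94 and 10.18 in L samples, M samples held 9.68, 9.87, 10.23, 10.25 and 10.62, and the values were 9.14, 10.46 and 11.92 in H samples and 9.42, 10.46 and 11.59 in R samples. Its log2 fold change of −0.27 ± 0.19 (SE) was not called either (q = 0.428). Both genes had their highest levels of the series in H samples at 63 dpn, in pig 11, and both were lower at 63 dpn in 14 of 18 pigs.

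IFIT1 had the narrowest spread of the 10 genes. It varied over a range of 1.27 on the log2 scale across the 37 arrays, against 2.78 to 4.06 for the main probe sets of the other 9 genes. Levels were 11.53, 11.85 and 12.20 (lowest, median and highest) in L samples, M samples held 11.99, 12.06, 12.23, 12.31 and 12.40, H samples had 11.36, 12.11 and 12.32, and R samples had 11.68, 12.12 and 12.63. No group stood apart, and the log2 fold change of −0.12 ± 0.09 (SE) was not called (limma, q = 0.418). The 2 IFIT1 probe sets ran together (r = 0.97 over 37 arrays). Whether either of them measures the interferon-induced IFIT1 transcript was not tested.

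The H samples at 63 dpn were not alike. Pigs 11 and 12, a male and a female, held the 2 highest levels of all 18 arrays at 63 dpn in 9 of the 10 genes, the exception being IFIT1. Averaged over the genes, pig 12 lay 1.56 and pig 11 lay 1.55 above the mean of the 63 dpn arrays, and the next array, H pig 18, lay 0.18 above it. The remaining 5 H samples ranged from −0.75 to 0.18. The same 2 arrays lay farthest out at one end of the first principal component of all tested probe sets. Cell markers moved with them in part: the mean log2 level of 9 monocyte markers was 11.02 in pig 12 and 9.90 in pig 11, with a range over all 63 dpn arrays of 8.95 to 11.02 and in R samples of 8.38 to 9.90, and that of 8 neutrophil markers was 9.51 and 8.51 in these pigs, with a range of 7.77 to 9.51 over 63 dpn arrays and 7.48 to 8.54 in R samples. The mean of 4 erythroid markers was 11.17 in pig 12, the lowest at 63 dpn, and 11.57 in pig 11, both below the lowest R sample at 11.79. An M sample at 63 dpn also had a monocyte mean of 9.90, and pig 11 lay within the R range for neutrophil markers. The part of these markers in the result was not tested. The 5 tested markers of plasmacytoid dendritic cells averaged 7.71 in pig 11, within the range of 7.46 to 8.08 at 63 dpn.

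**Figure D2:**
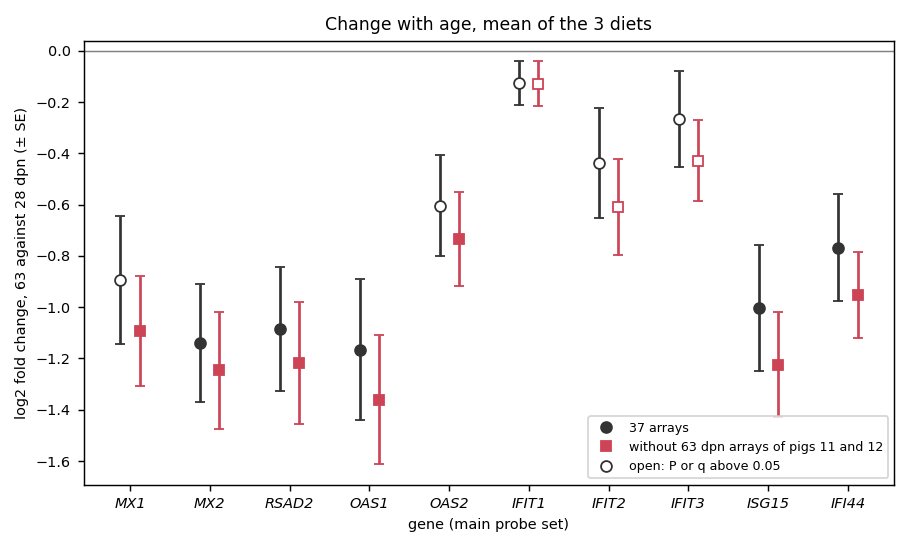
Log2 fold change of 63 against 28 dpn with the 3 diets averaged (y axis, ± SE) for the main probe set of each gene (x axis), from 37 arrays (circles) and without the 63 dpn arrays of pigs 11 and 12 (squares); filled symbols had P and q of at most 0.05. All 10 values are below 0, and 5 circles and 7 squares are filled.

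Without the 63 dpn arrays of these 2 pigs, 11 of the 19 member probe sets were called, all lower, against 1.26% of all tested probe sets in either direction. These arrays hold the highest 63 dpn levels of every member gene but IFIT1. Leaving them out must lower the 63 dpn means of those genes, so the added calls are no separate support for a fall. The same limit holds below in every comparison that has these arrays on its 63 dpn side. Where neither side has them, as in L against R samples, leaving them out changes the shared estimate of the spread instead. MX1 (log2 fold change −1.09, q = 0.00508) and OAS2 (−0.73, q = 0.0305) were then among the genes called, and ISG15 fell by 1.22 (q = 0.00134). IFIT1, IFIT2 and IFIT3 were still not called (q = 0.436, 0.0886 and 0.154).

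Each diet was next set against the R samples, which the 3 comparisons share. The mean level of each gene was lowest in L samples. All 19 probe sets had a negative log2 fold change, with a median of −0.96 against −0.01 over all tested probe sets, and all 19 had an unadjusted P under 0.05, as had 3.83% of all tested probe sets in that direction. None was called by limma (q from 0.0641 to 0.389), where 0.0249% of all tested probe sets were. OAS1 had −1.62 ± 0.39 (SE, q = 0.112), ISG15 −1.55 ± 0.34 (q = 0.0641), MX2 −1.48 ± 0.32 (q = 0.0641) and MX1 −1.37 ± 0.35 (q = 0.112). Without the 63 dpn arrays of pigs 11 and 12, 7 were called, of MX1, MX2, OAS1, ISG15 and IFI44, as were 0.146% of all tested probe sets. Neither L nor R samples include these arrays, which enter this comparison through the spread that all groups share. MX1 then had the same log2 fold change of −1.37 with an SE of 0.29 instead of 0.35. The 7 calls are therefore no separate support for a fall either. Leaving out a single array gave up to 3 calls, with 3 without the array of pig 12 at 63 dpn or of M pig 8 at 28 dpn, 2 without pig 11 at 63 dpn or M pig 2 at 28 dpn, and 1 without L pig 4 at 63 dpn.

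Mean levels of M samples lay between those of L and H samples in 9 of the 10 genes, and above both in IFIT1. Against R samples, 18 of 19 probe sets had a negative log2 fold change (median −0.78), 11 had an unadjusted P under 0.05, where 2.38% of all tested probe sets did in that direction, and none was called (limma, q from 0.761 to 0.999), with 0.0178% called over all tested. OAS1 had −1.36 ± 0.42 (SE), MX2 −1.26 ± 0.35 and RSAD2 −1.19 ± 0.36.

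In H samples the difference from R samples was smaller, with a median of −0.26 over the 19 probe sets. RSAD2, at −0.75 ± 0.32 (SE, q = 0.13), and MX2, at −0.68 ± 0.30 (q = 0.144), were the only 2 with an unadjusted P under 0.05, where 7.36% of all tested probe sets had one in that direction. None of the 19 was called by limma, against 2.09% of all tested probe sets, the most of the 3 comparisons with R samples. IFIT2 and IFIT3 had values of 0.10 and 0.18. Without pigs 11 and 12 all 19 values were negative, with a median of −0.54. An unadjusted P under 0.05 was held by 11, where 4.07% of all tested probe sets had one in that direction. None was called, against 0.0142% of all tested. The main probe sets then stood at −1.16 for ISG15 (q = 0.131) and −1.14 for OAS1 and RSAD2 (q = 0.197 and 0.178).

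Each diet was also set against the 28 dpn arrays of the pigs later given that diet, as group means without pairing (6 against 6 arrays for L, 5 against 6 for M, where pig 8 had no array at 63 dpn, and 7 against 7 for H). L samples had 19 negative values of 19, with 16 at an unadjusted P under 0.05, where 3.02% of all tested probe sets had one in that direction. MX2 had −1.73 ± 0.40 (SE) and OAS1 −1.79 ± 0.48 (limma, q = 0.331 and 0.453), and none was called, as over all tested probe sets (0% called). M pigs had 18 negative values, 2 of them with an unadjusted P under 0.05 (2.45% of all tested in that direction) and none called (0% over all tested). In H pigs 17 values were negative and 3 had an unadjusted P under 0.05, where 11% of all tested had one in that direction, among them IFIT1 at −0.34 ± 0.14 (SE, q = 0.062). None was called there, although 12.5% of all tested probe sets were. With the arrays of pigs 11 and 12 at 63 dpn left out, 3 member probe sets were called in H pigs, the main one of ISG15 among them (−1.33, q = 0.0342), and 3.14% of all tested.

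The diets were also compared at 63 dpn. All 19 probe sets were higher in H than in L samples in sign, with log2 fold changes of 0.10 to 1.10 and 15 unadjusted P values under 0.05, where 5.21% of all tested probe sets had one in that direction. IFIT2 had 1.10 ± 0.36 (SE), OAS1 1.07 ± 0.46 and ISG15 1.05 ± 0.41. None passed the q threshold (limma, q from 0.441 to 0.878), and 0% of all tested probe sets did. Without the 63 dpn arrays of pigs 11 and 12 the values were smaller: IFIT2 had 0.59 ± 0.34 (SE), OAS1 0.48 ± 0.45 and ISG15 0.38 ± 0.36, no member had an unadjusted P under 0.05, and 1 of the 19 values was negative. H against M samples gave 16 positive values of 19 and no unadjusted P under 0.05, with 0.80 ± 0.49 (SE) for OAS1 and a median of 0.52, which was 0.04 without those pigs. M against L samples gave 19 positive values with a median of 0.25. Only IFIT1, at 0.35 ± 0.17 (SE), had an unadjusted P under 0.05, where 1.68% of all tested had one in that direction. Neither comparison had a call among the 19 (limma, q from 0.397 to 0.734 and of 1) or over all tested probe sets (0% in both).

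The change with age in H pigs was also tested directly against the mean change in L and M pigs. The difference was 0.79 ± 0.43 (SE) for IFI44 and 0.74 ± 0.47 for MX2, and −0.33 ± 0.18 for IFIT1, with 18 positive values of 19 and a median of 0.48. Without the 63 dpn arrays of pigs 11 and 12 there were 9 positive values and the median was −0.01. With all arrays no member was called (limma, q from 0.156 to 0.438), with 0% called over all tested probe sets. No member had an unadjusted P under 0.05, where 20.1% of all tested had one. Before the diets began, the later groups differed in their means by 0.15 to 0.67 across the 19 probe sets. None was called (limma F test, q from 0.266 to 0.571), as over all tested probe sets (0%). IFIT1 alone had an unadjusted P under 0.05, where 11.3% of all tested probe sets had one. Males had higher levels than females at all 19 probe sets in sign, by 0.03 to 0.44, with none called (limma, q = 1, against 0.089% of all tested).

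**Figure D3:**
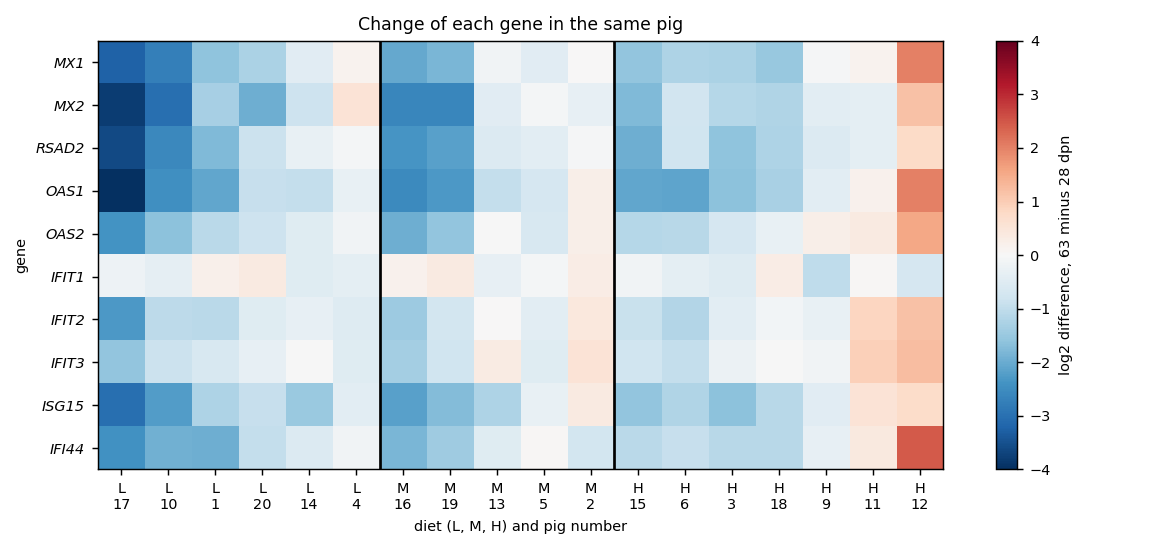
Log2 difference of 63 minus 28 dpn (color) for each gene (rows) in each of the 18 pigs with both arrays (columns, by diet L, M and H). Blue, a lower level at 63 dpn, fills most cells, pig 17 is the darkest blue and pig 12 is red in all genes but IFIT1.

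Individual pigs changed by very different amounts between the ages. L pig 17 had the largest decrease in 9 of the 10 genes and exceeded 3 on the log2 scale in MX1 (−3.24), MX2 (−3.80), RSAD2 (−3.60), OAS1 (−4.06) and ISG15 (−3.01). It was the lowest of 18 arrays at 63 dpn in 5 genes, and the highest of 19 arrays at 28 dpn in 6. H pig 12 went the other way, with differences of 2.44 for IFI44, 2.02 for MX1 and 2.01 for OAS1, and at 28 dpn it had been below the mean of that age by 0.41 on average. H pig 11 stood 1.55 above the mean at 63 dpn and already 0.55 above it at 28 dpn.

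No relation between a pig's levels at both ages was detectable over these animals. Over 18 pigs Pearson's r between the ages ranged from −0.42 for MX2 (rho = −0.41, permutation p = 0.0855 for r and 0.0951 for rho, adjusted p = 0.563 and 0.476 over the 10 genes) to 0.39 for IFIT2 (rho = 0.46, p = 0.113 and 0.0576, adjusted p = 0.563 and 0.476). No gene passed after adjustment, and none did with deviations from the diet means or without the 2 pigs farthest from the median at 28 dpn, where r was −0.34 for MX2 and 0.26 for IFIT2.

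**Figure D4:**
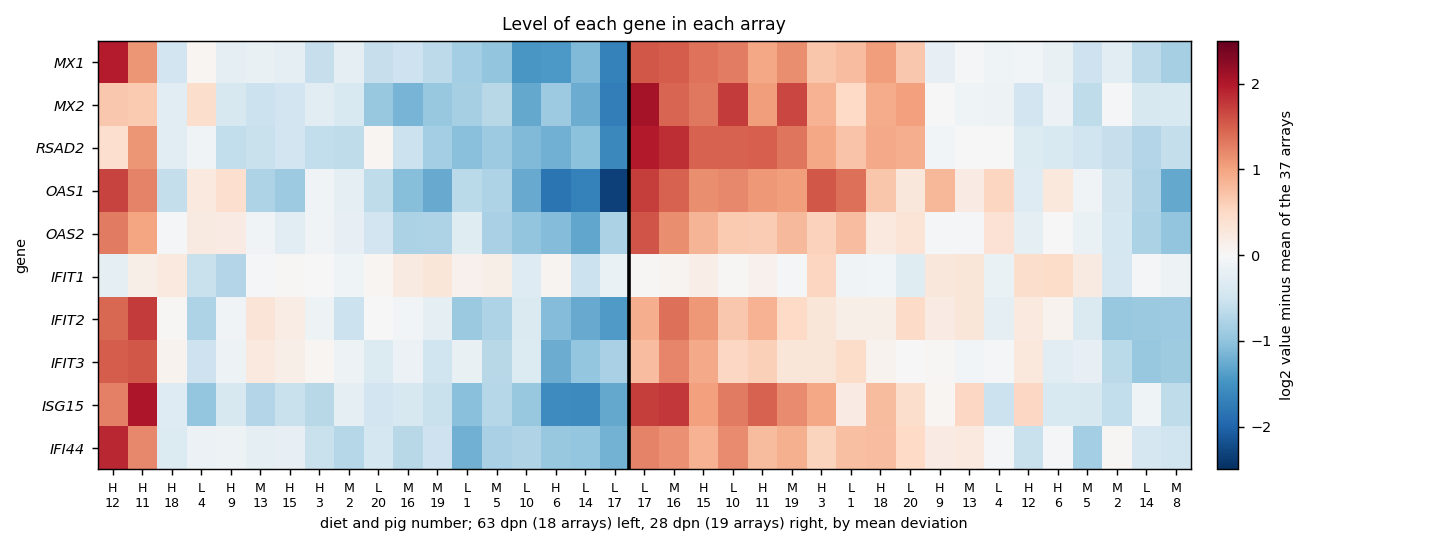
Log2 level of each gene (rows) minus its mean over the 37 arrays (color) in each array (columns, 63 dpn left of the line and 28 dpn right, ordered by mean deviation). Columns are mostly of 1 color apart from the IFIT1 row, and pigs 12 and 11 lead the 63 dpn arrays.

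The genes varied together from pig to pig. At 63 dpn, over 18 arrays, 36 of the 45 pairs of genes were correlated with an adjusted p under 0.05 (two-sided permutation tests, adjusted over the 45 pairs), with r from 0.71 for MX2 and IFIT2 (rho = 0.55, p = 0.00118 for r and 0.02 for rho, adjusted p = 0.00147) to 0.94 for MX1 and IFI44 (rho = 0.87, p = 1e-05, the smallest that the permutations can give, and 2e-05, adjusted p = 3e-05). The 9 pairs that did not pass were those with IFIT1, with r from −0.17 to 0.19. Without the 2 arrays farthest from the median of the first gene 31 pairs passed. For the 36 pairs without IFIT1 these were the arrays of pigs 11 and 12, so the next setting repeats this one there. The arrays of pigs 11 and 12 stand apart from the other 16 at this age: without them 31 pairs passed, r over the pairs without IFIT1 ranged from 0.37 for MX2 and IFIT2 (rho = 0.36, adjusted p = 0.192) to 0.85 for OAS1 and OAS2 (rho = 0.87, p = 3e-05 for r and 4e-05 for rho, adjusted p = 0.00045), and the median r over these 36 pairs was 0.69, against 0.87 with all 18 arrays.

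At 28 dpn, over 19 arrays, 36 pairs passed by the same test, with r from 0.75 to 0.98. The closest pair was MX1 and RSAD2 (r = 0.98, rho = 0.95, p = 1e-05 for each, adjusted p = 1.96e-05). The pairs with IFIT1 again did not pass, with r from −0.15 to 0.29. Without the 2 arrays farthest from the median of the first gene, 36 pairs passed again, with r from 0.71 to 0.98. L pig 17 and M pig 16 were highest at this age, 1.01 and 0.94 above the mean over the genes, and M pig 8 and L pig 14 lowest, at −1.07 and −0.94, so the untreated piglets spread widely: the SD over R samples was 0.86 for MX2 and 0.93 for RSAD2.

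**Figure D5:**
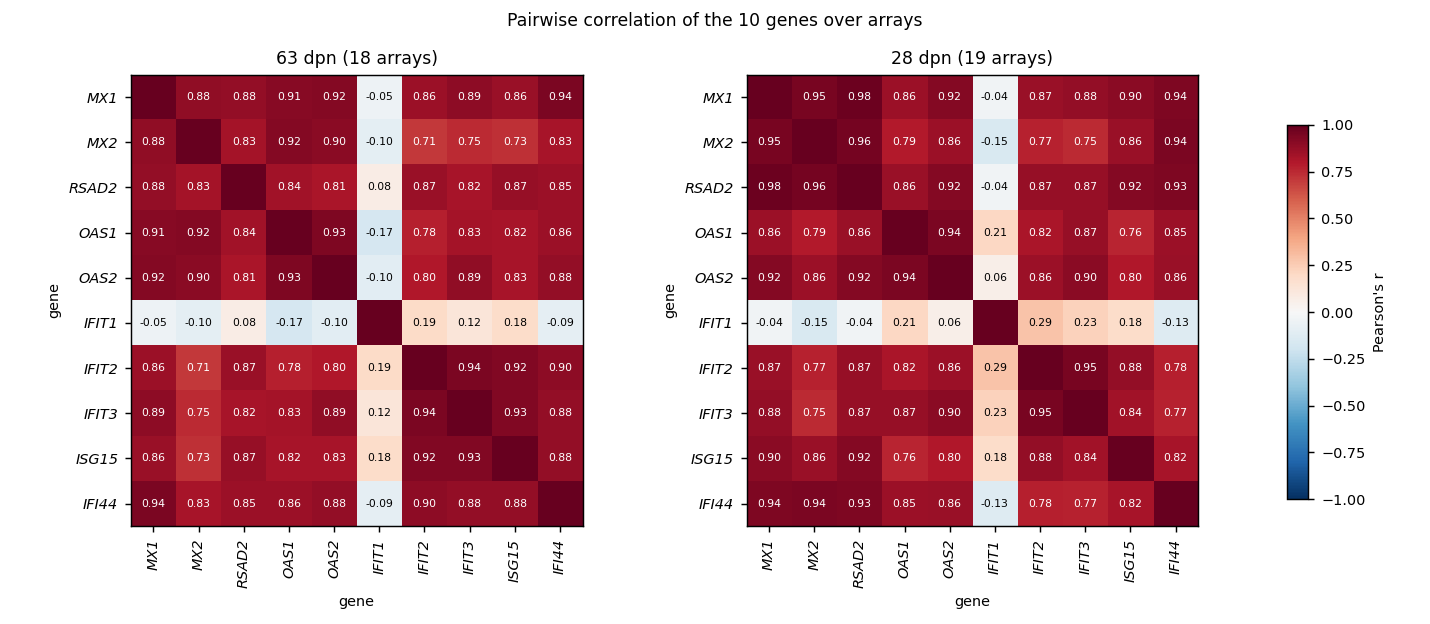
Pearson's r (color and number) for each pair of the 10 genes, over 18 arrays at 63 dpn (left) and 19 arrays at 28 dpn (right). IFIT1 forms a pale cross in both panels, and the other pairs have r of 0.71 or more at 63 dpn and 0.75 or more at 28 dpn.

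Other genes followed the same pattern. Of 9519 named genes outside the 10, those most like the mean of the 10 centered genes over the 37 arrays were DDX58, which encodes the RNA sensor RIG-I (r = 0.97), DHX58 (0.95), ZNFX1 (0.94), EPSTI1 (0.93), IFIT5 (0.92), IFIH1, which encodes the sensor MDA5 (0.92), IFI6 (0.92), UBE2L6, the conjugating enzyme of ISG15 (0.92), DTX3L (0.91) and TRANK1 (0.91). These r share the 37 arrays and both ages, and are given as a description. Among the 10 genes themselves, each correlated with the mean of the other 9 at 0.87 to 0.97, except for IFIT1 at 0.16.

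Of 35 tested genes on a list of other interferon-stimulated genes, 4 were called in the mean change with age, all lower. Over all tested probe sets 0.278% were called lower. Negative values were held by 31 of the 35, with a median of −0.27 against −0.01 over all tested. The 4 called were IFI6, which had −1.07 ± 0.23 (SE, limma, q = 0.0136), DDX60 with −0.80 ± 0.15 (q = 0.00376), EPSTI1 with −0.79 ± 0.17 (q = 0.0105) and XAF1 with −0.78 ± 0.19 (q = 0.0252). Without pigs 11 and 12 at 63 dpn 10 were called, all lower, against 0.484% of all tested. BST2, CMPK2, EIF2AK2, IFIT5, PARP12 and UBE2L6 were added. In H against R samples only DDX60 was called (−0.68 ± 0.20, q = 0.0487), against 0.324% of all tested called lower. This call was lost without pigs 11 and 12 (q = 0.172). CXCL11, XAF1 and EPSTI1 followed in H against R samples with −0.29 (q = 0.143), −0.51 (q = 0.171) and −0.45 (q = 0.174).

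Genes upstream of the program were also examined. Of 10 tested sensors and adaptors, 8 had negative values with age. An unadjusted P under 0.05 in that direction was held by 7, against 5.75% of all tested probe sets. None was called, with DDX58 at −0.66 ± 0.22 (SE, limma, q = 0.115), DHX58 at −0.51 ± 0.17 (q = 0.122) and IFIH1 at −0.45 ± 0.13 (q = 0.0712). Without pigs 11 and 12 these 3 were called as lower, against 0.484% of all tested. TBK1, the kinase that activates the inducers of interferon, was higher at 63 than at 28 dpn in H pigs (0.52 ± 0.17, limma, q = 0.0274), where 7.99% of all tested probe sets were called higher, and this call was lost without pigs 11 and 12 (q = 0.142). In H against R samples TBK1 stood at 0.28 (q = 0.192), TRIM25 at −0.16 (q = 0.286), IKBKE at −0.20 (q = 0.323) and TLR3 at −0.19 (q = 0.353).

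Of 5 tested interferon receptor genes 2 were called in H against R samples, both higher, where 1.77% of all tested probe sets were called higher. IFNGR1, which binds interferon gamma, had a log2 fold change of 0.71 ± 0.18 (SE, limma, q = 0.0291) in H against R samples and IFNAR1, which binds type I interferon, 0.50 ± 0.14 (q = 0.0386). IL10RB had 0.66 (q = 0.0697) and IFNAR2 0.27 (q = 0.102). Both calls against R samples were lost without pigs 11 and 12, at 0.32 for IFNGR1 (q = 0.292) and 0.21 for IFNAR1 (q = 0.367). The mean level of the 5 receptor genes was 9.25 in pig 12 and 8.37 in pig 11, with 7.41 to 7.97 in R samples. At 63 against 28 dpn in H pigs 2 of the 5 were also called higher, where 7.99% of all tested were. Without pigs 11 and 12, 1 of the 5 was called higher there, against 2.67% of all tested. Of 4 tested genes of JAK-STAT signaling none was called in H against R samples, with JAK1 at 0.25 (q = 0.121) and STAT2 at 0.09 (q = 0.497), but JAK1 was called as higher at 63 than at 28 dpn in H pigs (0.34 ± 0.12, q = 0.0434, and q = 0.114 without pigs 11 and 12). JAK1 was 1 of 4 genes of its list called there as higher, PTPN2 1 of 5 and TBK1 1 of 10, against 7.99% of all tested probe sets. Among 5 negative regulators PTPN2 was called in the same comparison as higher (0.54 ± 0.17, q = 0.0243, and q = 0.17 without those pigs), PIAS1 had 0.31 (q = 0.125) and SOCS3 0.57 (q = 0.145) in H against R samples, and USP18, which removes ISG15 from proteins, had −0.52 ± 0.20 (q = 0.176) in the mean change with age and was called without pigs 11 and 12 (−0.68, q = 0.0335). The 3 tested interferon genes, IFNG, IFNE and IFNK, had values of 0.29, 0.04 and −0.21 in H against R samples, none called (q from 0.247 to 0.56).

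Marker lists of the cells that PBMC can hold were set beside the mean change with age, in which 52.7% of all tested probe sets had a negative value. Monocyte markers had 8 positive values of 9 with none called, T cell markers 5 of 6, neutrophil markers 7 of 8, NK and cytotoxic markers 5 of 8 and markers of plasmacytoid dendritic cells 4 of 5, again with none called by limma. B cell markers had 6 of 7, and VPREB3 was called as higher (0.64 ± 0.10, SE, q = 0.000296), against 0.815% of all tested called higher. Platelet markers had 6 negative values of 6 with a median of −0.56 and none called. Erythroid markers had 2 of 4 negative, none called. In H pigs alone, 63 against 28 dpn, more markers were called. There 4 of 9 monocyte, 4 of 7 B cell and 1 of 8 NK and cytotoxic markers were called higher. That was so for 7.99% of all tested probe sets. Called lower were 1 of 8 neutrophil and 2 of 4 erythroid markers, against 4.51% of all tested. Without pigs 11 and 12 at 63 dpn, 2 B cell markers were called higher in H pigs, against 2.67% of all tested. No other marker of these lists was called there. The part of these cells in the levels of the interferon-stimulated genes was not tested.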

How the data were processed

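PBMC were isolated from blood on a density gradient, and the authors generated raw signals with GCOS 1.1.1, normalized them by RMA and deposited log2 intensities for 47845 probe sets on 37 arrays; the build behind the annotation is not given in the sources used here. The study's filter was applied once 123 control probe sets had been removed: a probe set needed an SD above 0.23 and a mean above 2.5 across arrays. Fits used limma 3.58.1 (R 4.3.3) on all arrays with group and sex; the labels give no sire, scan date or batch. P values were turned into Storey q values. The members and gene lists were chosen with earlier results of these data known. The main probe set of a gene was that with the highest mean among those passing the filter. Of other genes, those most like the members, those called, and the leading ones of each pathway list by P against R in H samples (4 at most), are named. Correlations used 100000 permutations. Pairing by pig number rests on the labels, in which a number keeps its diet and sex at both ages; deviations of the same pig from its group means correlated at −0.16 to 0.24. Each sample is 1 array, and precision is limited by how many there are. The fits were tested on simulated data.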

Additional observations from a re-analysis of the deposited data

Results flagged for a closer look

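No result was flagged: among 120 groups of 5 to 7 arrays, 6 for each of the 20 probe sets, no single array lay far enough from its nearest neighbor by Dixon's ratio, which by chance marks about 1 in 20 groups. The 2 high H arrays at 63 dpn lie close to each other, which this ratio does not detect. The test of the difference in change with age between H pigs and the other pigs called no member.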

How the results depend on the processing

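None of the settings run reversed the direction of a gene's mean change with age. Of 19 member probe sets, 8 were called with age in the mean of the 3 diets, 5 with unmoderated variances, 6 to 11 under the other settings, and 3 to 9 when each array was left out in turn; 3 were called without M pig 16 at 63 dpn, 4 without M pig 13 at 28 dpn and 5 without L pig 17 at 28 dpn or L pig 10 at 63 dpn. L against R gave 8 calls with array weights, 7 without pigs 11 and 12 at 63 dpn, 4 with the stricter filter, 3 with repeated quantile normalization, 2 with only the groups compared, and 0 to 3 without single arrays. In H pigs, 63 against 28 dpn gave 1 call with array weights, 3 without pigs 11 and 12, and 0 to 1 without single arrays (1 without pig 18 at 28 dpn, or pig 12 or 18 at 63 dpn). With the replicate block there were 7 calls with pig as a random effect and 6 with pig as fixed effects in the mean of the 3 diets, and the IFI44 call was lost (q = 0.0509 and 0.0721); the pairing changed no count by over 1.5 times. The IFI44 call was also lost with Benjamini-Hochberg adjustment (q = 0.0657), without the filter (q = 0.071), with arrays centered on their medians (q = 0.0724) and with unmoderated variances (q = 0.0753), which also lost ISG15 (q = 0.0519). MX1 was called with the stricter filter (q = 0.0339), array weights (q = 0.0148) and repeated quantile normalization (q = 0.0442), and OAS2 with array weights (q = 0.038). OAS1 lost its call without M pig 16 at 63 dpn (q = 0.0501). The cause of these shifts was not tested. Pairs passing at 63 dpn numbered 36 within diet and sex and 31 without the 2 farthest arrays. In pairs without IFIT1 the 2 farthest arrays were those of pigs 11 and 12. The setting without pigs 11 and 12 was added for the pairs after seeing the data. In the fits too it rests on these data, as no label sets these pigs apart from the other H pigs.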
